A study of Saccharomyces cerevisiae BY4741 with 2 samples.

Results

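The genes described are 35 nuclear genes of the budding yeast Saccharomyces cerevisiae that carry an annotated intron and do not encode ribosomal proteins. Their RNA was compared between a dbp2 deletion strain and a wild-type strain. They were chosen by name from a list of 38 genes, and the other 3 (RIM1, MOB2 and APE2) were not analysed here. The 35 names fill 36 rows of the deposited tables, which hold 2809 distinct names on 3146 rows, because DID4 stands on 2 rows. The assay was strand-specific sequencing of total RNA after removal of ribosomal RNA, and the cells were in mid-log growth in rich medium with 2% glucose at 30 °C. The dbp2 deletion strain is a MATa haploid in which a KanMx cassette replaces DBP2. Its other markers are ura3Δ0, leu2Δ0, his3Δ0, TRP1, met- and lysΔ. The wild-type strain is a MATa haploid with his3Δ1, leu2Δ0, met15Δ0 and ura3Δ0. Deletions at URA3, LEU2 and HIS3 are thus carried by both, and the lysine deletion is given for the dbp2 deletion strain alone, so the effects of DBP2 and of the other markers cannot be told apart.

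Most genes of budding yeast have no intron, and ribosomal protein genes hold a large share of those that do. The spliceosome recognises a 5′ splice site that usually reads GTATGT in the DNA, a branch site that usually reads TACTAAC, and a 3′ splice site ending in AG. DBP2 encodes a DEAD-box RNA helicase, an enzyme that unwinds and remodels RNA, and carries an intron of its own. HAC1 is an exception among the genes described, since its intron is cut out of the cytoplasmic mRNA by the nuclease Ire1 and the ends are joined by the tRNA ligase Trl1. The splicing of REC107 and SPO22 in meiosis depends on the splicing activator Mer1.

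The introns of the genes that differed most between the strains are shown first, with those of the meiotic genes REC107 and SAE3 and of VMA10, the most abundant gene of the set in the deletion strain. Sequences are from the RefSeq genome of assembly R64, read 5′ to 3′ on the strand of the gene. Capitals mark the first 6 bases, the 7 bases that match the branch site or differ from it by 1 letter, the last 3 bases and, in SPO22 and REC107, a match to the Mer1 motif. The first 3 lines are genes that were higher in the deletion strain.
SPO22: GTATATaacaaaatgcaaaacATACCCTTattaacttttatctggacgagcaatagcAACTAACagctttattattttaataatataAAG
NBL1: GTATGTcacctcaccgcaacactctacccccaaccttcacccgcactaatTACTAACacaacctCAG
APS3: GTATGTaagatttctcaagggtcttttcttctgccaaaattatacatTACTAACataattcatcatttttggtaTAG
LSB3: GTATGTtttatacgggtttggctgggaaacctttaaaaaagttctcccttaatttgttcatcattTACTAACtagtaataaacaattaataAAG
PTC7: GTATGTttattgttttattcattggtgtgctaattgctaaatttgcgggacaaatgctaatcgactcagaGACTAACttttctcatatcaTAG
REC107: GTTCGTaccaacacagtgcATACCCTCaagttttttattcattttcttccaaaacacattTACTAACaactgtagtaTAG
SAE3: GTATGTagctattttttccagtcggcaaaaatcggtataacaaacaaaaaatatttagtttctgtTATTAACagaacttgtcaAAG
VMA10: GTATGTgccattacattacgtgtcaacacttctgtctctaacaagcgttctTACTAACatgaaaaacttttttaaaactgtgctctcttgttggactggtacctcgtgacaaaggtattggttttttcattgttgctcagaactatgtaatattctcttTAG

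For HAC1 both junctions are shown, with intron bases in capitals and 12 bases of exon in lower case. Neither end carries the sequences of a spliceosomal intron.
HAC1 5′ junction: ggcgtaatccagCCGTGATTACGA
HAC1 3′ junction: TTGTACTGTCCGaagcgcagtcag

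Each strain had 1 deposited value per row, in FPKM, a count of fragments divided by transcript length and library size, although the labels name 2 replicates per strain. No spread between replicates can be estimated, so no test, error or p-value was computed and differences are given without any check against replicate error. Read counts are not given and the depth is unknown. The deleted gene stood on 3 rows. They were at 2.52, 3.70 and 3.33 FPKM in the dbp2 deletion strain, against 1539.7, 348 and 5.62 FPKM in wild type, so the last was low in both. An FPKM value per gene does not separate spliced from unspliced RNA, so none of the values below measures splicing. FPKM is scaled by length, which allows levels of different genes to be set side by side.

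None of the 36 rows was at 0 in either strain. The 34 genes on a single row were compared by the log2 of (dbp2 deletion + 1) / (wild type + 1), a scale that understates the change of low genes. Of these, 3 were at least 2-fold higher in the dbp2 deletion strain (SPO22, NBL1 and APS3) and 3 at least 2-fold lower (PTC7, LSB3 and HAC1), which is 8.82% in each direction. Among all 2211 genes compared, the shares past the limit were 8.86% in the higher direction and 10.9% in the lower one. The median log2 ratio was -0.09 over the 34 genes and -0.08 over all genes compared, and 17 of the 34 had higher and 17 lower values. The number of members past the limit was thus close to the background in both directions. When the values were rescaled to equal sums of protein-coding FPKM in both strains, 7 members (20.6%) passed the limit upwards and 2 (5.88%) downwards, against 19.6% and 4.48% of all genes compared. The median log2 ratio of the members was then 0.37. That scaling moved the median of all genes by 0.46, to 0.38.

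**Figure D1:**
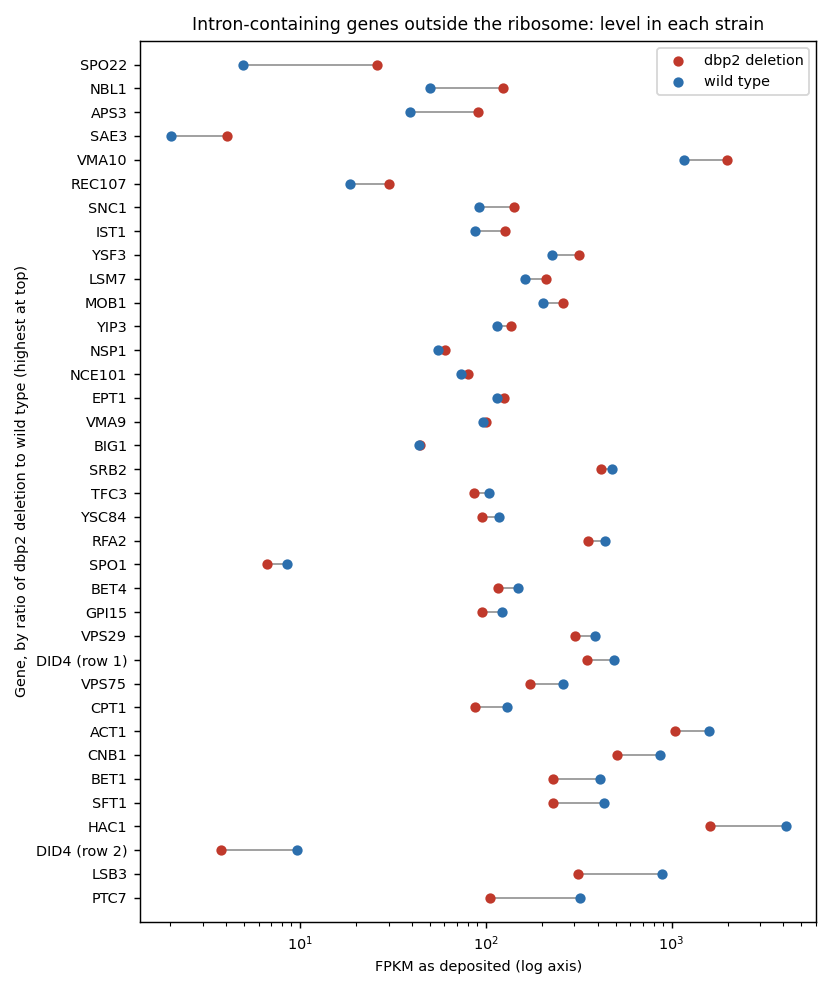
Level of each gene in FPKM on a log axis, with a red point for the dbp2 deletion strain and a blue point for wild type, 1 value per strain and both rows of DID4. Genes are ordered by the ratio of the 2 values, from SPO22 at the top (26.1 FPKM in the deletion strain, 4.96 FPKM in wild type) to PTC7 at the bottom (105 FPKM and 323 FPKM).

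Levels on single rows ran from 4.06 to 1976 FPKM in the dbp2 deletion strain and from 2.02 to 4110.2 FPKM in wild type. HAC1 was the highest of the 34 genes in wild type and VMA10 the highest in the dbp2 deletion strain. SAE3 was the lowest in both, followed by SPO1 in the deletion strain and by SPO22 in wild type. As deposited, abundant members were mostly lower in the deletion strain. Of the 10 members with a mean of at least 300 FPKM, 9 were lower, 2 of them by at least 2-fold, and the median log2 ratio was -0.69. Among all 413 genes of that level 305 were lower, 95 of them (23.0%) by at least 2-fold, and the median was -0.49. Of the 11 members below 100 FPKM, 9 were higher and 3 at least 2-fold higher, with a median of 0.13. Among the 1182 genes of that level 670 were higher, 130 of them by at least 2-fold, and the median was 0.12. The 13 members in between had a median of 0.11, against -0.17 over 616 genes. All genes showed this trend with level under the deposited scaling. Spearman's rho between mean level and log2 ratio was -0.51 over the 33 members other than HAC1 and -0.26 over all genes compared. These are descriptions across genes that share the same pair of libraries.

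**Figure D2:**
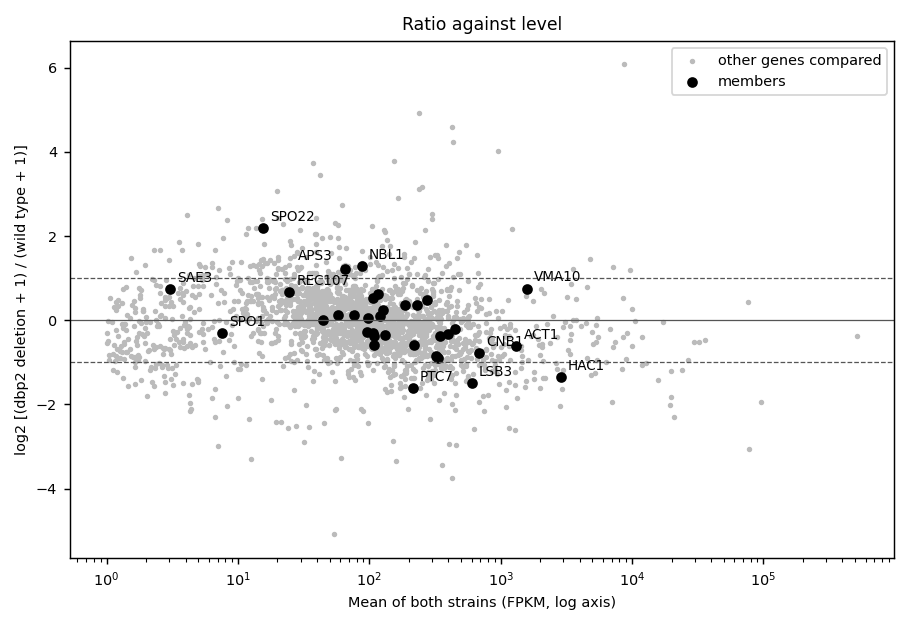
Log2 ratio of dbp2 deletion to wild type (pseudocount of 1) against the mean of both strains in FPKM on a log axis, with members in black and the other genes compared in grey. Dashed lines mark a 2-fold difference, and the members past them are SPO22, NBL1 and APS3 above and PTC7, LSB3 and HAC1 below.

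The members with roles in meiosis held the largest ratio of the set. SPO22, a meiosis-specific protein of the synapsis machinery on chromosome IX (222937 to 225954), was at 26.1 FPKM in the dbp2 deletion strain and 4.96 FPKM in wild type. It was 5.27-fold higher, with a log2 ratio of 2.19. In bulk RNA, few cells with much of an RNA and many cells with little of it cannot be told apart. Its neighbours on the chromosome were both lower in the deletion strain. SER33, a serine synthesis gene on the same strand, was at 167 FPKM in the deletion strain and 390.5 FPKM in wild type, and HOP1, a meiotic chromosome axis gene on the other strand, was at 2.16 FPKM and 7.78 FPKM. REC107 (also called MER2), needed for meiotic double-strand breaks, was at 30.3 FPKM in the deletion strain and 18.6 FPKM in wild type, 1.63-fold higher. SAE3, which acts with the recombinase Dmc1, was at 4.06 FPKM in the deletion strain and 2.02 FPKM in wild type. The plain ratio of these low values was 2.01, but the log2 ratio with the pseudocount was 0.74, below the limit. SPO1, a phospholipase-like protein of sporulation, was at 6.69 FPKM and 8.51 FPKM. The meiotic members therefore went in both directions. With equal protein-coding sums all 4 had positive log2 ratios, of 2.61, 1.13, 1.09 and 0.11.

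Other meiotic genes went in both directions. Of a list of 35 genes without these members, 13 were in the rows and 10 were compared, of which 1 passed the limit upwards and 3 downwards. As deposited 3 had higher and 7 lower values, with a median log2 ratio of -0.32. Over all genes compared 8.86% passed the limit upwards and 10.9% downwards, and the median was -0.08. At equal sums 6 had higher values, 2 passed the limit upwards and 2 downwards, and the median was 0.08, against 0.38 over all genes compared. NDT80, the transcription factor of middle meiosis, was at 15.6 FPKM in the deletion strain and 5.38 FPKM in wild type, 2.89-fold higher. DMC1, the meiotic recombinase that also has an intron, was at 20.4 FPKM in the deletion strain and 91.8 FPKM in wild type, 4.49-fold lower. MER1, which encodes the splicing activator of SPO22 and REC107, was at 1.07 FPKM in the deletion strain and 3.57 FPKM in wild type, a log2 ratio of -1.14. MER1 was thus low in both strains. HOP1 had a log2 ratio of -1.48.

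Among the genes of the cell cycle 2 were in the rows. NBL1, a borealin-like subunit of the chromosomal passenger complex on chromosome VIII (498571 to 498859), was at 125 FPKM in the dbp2 deletion strain and 50.2 FPKM in wild type, 2.48-fold higher. Both neighbouring genes were lower as deposited, AIM46 at 243 FPKM in the deletion strain and 286 FPKM in wild type and the proteasome gene RPN10 at 585 FPKM and 742 FPKM. Their log2 ratios of -0.23 and -0.34 are smaller in size than the 0.46 by which equal protein-coding sums moved the median of all genes. MOB1, a component of the mitotic exit network, was at 261 FPKM in the deletion strain and 204 FPKM in wild type, 1.28-fold higher.

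Membrane traffic was the role with the most members, 10 in the rows and 9 on a single row. APS3, the small subunit of the AP-3 adaptor of vacuolar sorting on chromosome X (395931 to 396592), was at 91.5 FPKM in the dbp2 deletion strain and 39.1 FPKM in wild type. It was 2.34-fold higher and the one gene of this role past the limit. RRN7, an RNA polymerase I factor on the other strand beside it, was also higher, by 2.05-fold, at 30.8 FPKM in the deletion strain.

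The SNARE proteins, which drive membrane fusion, divided. SNC1, on secretory vesicles, was at 142 FPKM in the dbp2 deletion strain and 91.5 FPKM in wild type, 1.55-fold higher. BET1, of transport from the endoplasmic reticulum to the Golgi, was at 230.1 FPKM and 412 FPKM, 1.79-fold lower. SFT1, of traffic within the Golgi, was at 231 FPKM in the deletion strain and 430.4 FPKM in wild type, 1.86-fold lower. Neither BET1 nor SFT1 passed the limit of 2-fold. Among 5 other SNARE genes compared, from a list of 20, GOS1 was 2.19-fold higher and YKT6 2.26-fold lower. The median log2 ratio was 0.13. After rescaling to equal protein-coding sums 2 of the 5 passed the limit upwards and 0 downwards, and the median was 0.59. Over all genes compared 19.6% and 4.48% then passed it, with a median of 0.38. SSO1 was 1.71-fold higher and SYN8 1.13-fold lower.

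As deposited, sorting genes of endosomes also went in both directions. IST1, which acts with the ESCRT-III membrane scission machinery, was at 127 FPKM in the dbp2 deletion strain and 88.1 FPKM in wild type, 1.44-fold higher. The retromer subunit gene VPS29 was at 302 FPKM in the deletion strain and 390 FPKM in wild type, 1.29-fold lower. With equal protein-coding sums IST1 was at a log2 ratio of 0.99 and VPS29 at 0.10, both positive. The ESCRT-III gene DID4 stood on 2 rows, at 349 FPKM in the deletion strain and 488 FPKM in wild type on the higher and at 3.78 FPKM and 9.65 FPKM on the lower. Both rows were lower in the deletion strain as deposited, by 1.40-fold and 2.55-fold, and how they differ is not stated. Of 8 other ESCRT and retromer genes compared, from a list of 22, 0 passed the limit and 7 had higher values, with a median of 0.29. All 8 had higher values at equal sums, where VPS25 passed the limit at 1.11 and the median was 0.75. The median over all genes compared was then 0.38, and 19.6% passed the limit upwards. VPS25 was the largest of them at 1.58-fold, followed by HSE1 at 1.37-fold, VPS27 at 1.29-fold and BRO1 at 1.22-fold. BET4, a subunit of the enzyme that adds lipid to Rab GTPases, was at 117 FPKM and 149 FPKM, YIP3, a Rab-interacting protein, was at 137 FPKM and 116 FPKM, and NCE101, named for non-classical export, was at 80.2 FPKM and 73.9 FPKM. BET4 was 1.27-fold lower, YIP3 1.18-fold higher and NCE101 1.09-fold higher. At equal sums BET4 had a positive log2 ratio of 0.12.

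All 3 members of the actin cytoskeleton were lower in the deletion strain. LSB3, an SH3-domain protein of actin patches on chromosome VI (201960 to 203433), was at 316 FPKM in the dbp2 deletion strain and 887 FPKM in wild type, 2.81-fold lower. Its paralog YSC84 was at 95.2 FPKM in the deletion strain and 118 FPKM in wild type, 1.23-fold lower. The coding sequences of LSB3 and YSC84 were identical at 75.2% of 1326 aligned bases. ACT1, the actin gene, was at 1046 FPKM in the deletion strain and 1593 FPKM in wild type, 1.52-fold lower. With equal protein-coding sums LSB3 stayed past the limit at -1.02, ACT1 was at -0.14 and YSC84 had a positive log2 ratio of 0.16. Among 15 other actin patch and actin-binding genes compared, from a list of 33, 9 had higher values, with a median of 0.07. CAP2, of the actin capping protein, was 2.05-fold higher and passed the limit. At equal sums 12 of the 15 had higher values, 3 passed the limit upwards and 0 downwards, and the median was 0.54. For all genes compared the shares were then 19.6% and 4.48% and the median was 0.38. SLA2 was 1.89-fold lower, BNI1, a formin, 1.69-fold higher and SRV2 1.67-fold lower.

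**Figure D3:**
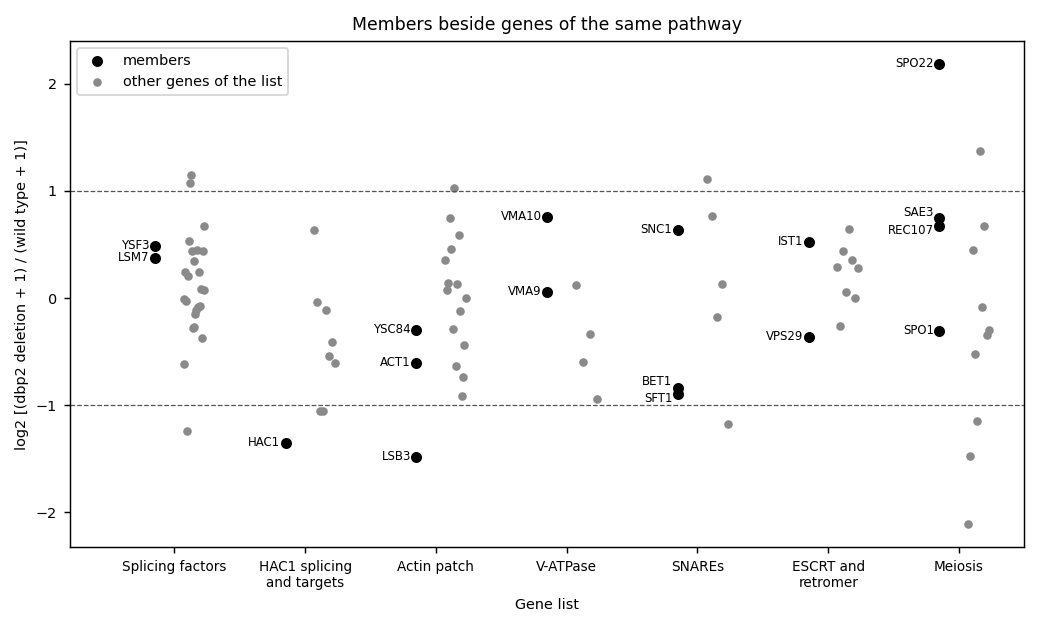
Log2 ratio of dbp2 deletion to wild type for members (black, named) and for other genes of 7 lists (grey), with dashed lines at a 2-fold difference. The actin member LSB3 (-1.49) and the meiotic member SPO22 (2.19) lie outside the range of the other compared genes of their lists. So do HAC1 (-1.35), VMA10 (0.75) and VPS29 (-0.37), and both splicing factor members lie inside it. These ranges cover a part of each list: 15 of 33 actin genes, 10 of 35 meiotic genes, 8 of 14 HAC1 genes, 4 of 18 V-ATPase genes and 8 of 22 ESCRT and retromer genes.

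HAC1 was the most abundant of these genes in wild type. It encodes the transcription factor of the unfolded protein response and lies on chromosome VI at 75179 to 76147 with an intron of 252 bases. It was at 1612 FPKM in the dbp2 deletion strain and 4110.2 FPKM in wild type, 2.55-fold lower. With equal protein-coding sums its log2 ratio of -1.35 became -0.88, no longer past the limit. The values do not say how much of this RNA had lost the intron. IRE1, the nuclease that cuts HAC1, was at 71.8 FPKM in the deletion strain and 45.8 FPKM in wild type, 1.57-fold higher. TRL1, the ligase, was at 66.2 FPKM and 101 FPKM, 1.53-fold lower. Of a list of 14 genes of HAC1 splicing and of its targets, 8 were compared. Of these, 7 had lower values and 2 were at least 2-fold lower, with a median of -0.48. Of all 2211 genes compared, 1194 had lower values and 10.9% were at least 2-fold lower, with a median of -0.08. The chaperone genes LHS1 and KAR2 of the endoplasmic reticulum were those 2, at 2.09-fold and 2.08-fold lower. Both had log2 ratios of -0.59 at equal protein-coding sums and no longer passed the limit. There, 4 of the 8 genes had higher values, and the median of the list was -0.01, against 0.38 over all genes compared.

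As deposited, the other members in RNA synthesis and processing stayed within 1.40-fold of wild type. YSF3, a subunit of the U2 snRNP, was at 318 FPKM in the dbp2 deletion strain and 227 FPKM in wild type, 1.40-fold higher. LSM7, part of the ring that binds U6 RNA and of a decay complex, was at 211 FPKM in the deletion strain and 163 FPKM in wild type, 1.30-fold higher. NSP1, a nuclear pore protein, was at 60.3 FPKM and 55.2 FPKM. SRB2, a Mediator subunit, was at 416 FPKM in the deletion strain and 478 FPKM in wild type, and TFC3, a subunit of the RNA polymerase III factor TFIIIC, was at 86.3 FPKM and 104 FPKM. SRB2 and TFC3 were 1.15-fold and 1.21-fold lower, and had positive log2 ratios of 0.27 and 0.19 with equal protein-coding sums. At that scaling YSF3, LSM7 and NSP1 had log2 ratios of 0.95, 0.84 and 0.59, against a median of 0.38 over all genes compared.

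The splicing machinery itself was examined with a list of 91 factors, of which 26 were in the rows, LSM7 and YSF3 among them. Of these 26, 15 had higher values, 2 passed the limit upwards and 1 downwards, with a median log2 ratio of 0.15. Rescaled to equal sums, 24 of 26 had higher values, 4 passed the limit upwards and 0 downwards, and the median was 0.61. Among all genes compared 19.6% and 4.48% then passed the limit, and the median was 0.38. LSM8, of the nuclear U6 ring, was at 81.6 FPKM in the dbp2 deletion strain and 36.2 FPKM in wild type, 2.25-fold higher. LEA1, a U2 snRNP protein, was 2.14-fold higher, at 68.4 FPKM in the deletion strain. HUB1, a ubiquitin-like modifier of the spliceosome, was at 50.1 FPKM and 120 FPKM, 2.39-fold lower, and had a log2 ratio of -0.78 with equal protein-coding sums. YJU2, a factor of the catalytic step, was 1.62-fold higher. The lariat debranching enzyme gene DBR1 was at 91.6 FPKM in the deletion strain and 93.4 FPKM in wild type. The U1 RNA gene SNR19 was the one spliceosomal RNA in the rows, at 10139.9 FPKM in the deletion strain and 4211 FPKM in wild type, 2.41-fold higher. NMD2, a factor of nonsense-mediated decay, which removes many unspliced transcripts, was at 83.8 FPKM and 63.0 FPKM. NMD2 has an intron itself and lies beside PTC7.

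PTC7 had the lowest ratio of the set. It encodes a protein phosphatase on chromosome VIII (251101 to 252225) whose spliced and unspliced RNAs are both known to be translated. It was at 105 FPKM in the dbp2 deletion strain and 323 FPKM in wild type, 3.06-fold lower, and at a log2 ratio of -1.14 with equal protein-coding sums. CNB1, the regulatory subunit of the phosphatase calcineurin, was at 508 FPKM in the deletion strain and 871 FPKM in wild type, 1.71-fold lower.

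The vacuolar proton pump was represented by 2 members. VMA10, subunit G of the V1 sector, was at 1976 FPKM in the dbp2 deletion strain and 1173 FPKM in wild type. It was 1.68-fold higher, the one member with a mean above 300 FPKM that had a higher value. VMA9, subunit e of the V0 sector and the one member with 2 introns, was at 99.9 FPKM and 96.1 FPKM. Of 4 other V-ATPase genes compared, from a list of 18, 3 had lower values and 0 passed the limit. VMA5 was at 668 FPKM in the deletion strain and 1289 FPKM in wild type, VMA16 at 1132 FPKM and 1716 FPKM, the assembly factor VMA22 at 132 FPKM and 167 FPKM and VMA11 at 143 FPKM and 132 FPKM. The median log2 ratio of these 4 was -0.47, and -0.00051 with equal protein-coding sums, where VMA10 passed the limit at 1.22.

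None of the lipid, cell wall and DNA genes passed the limit. EPT1 and CPT1, a pair of phospholipid synthesis enzymes with 72.3% identical coding bases, went in opposite directions. EPT1 was at 125 FPKM in the dbp2 deletion strain and 115 FPKM in wild type, and CPT1 was at 87.1 FPKM and 130.5 FPKM. GPI15, of GPI anchor synthesis, was at 95.2 FPKM in the deletion strain and 123 FPKM in wild type. BIG1, an endoplasmic reticulum protein needed for cell wall glucan, was at 44.2 FPKM and 43.9 FPKM, the closest ratio to 1 of all members. VPS75, a histone chaperone, was at 174 FPKM in the deletion strain and 261 FPKM in wild type, and its annotated end overlaps that of CWC25 on the other strand by 4 bases. RFA2, a subunit of the single-strand DNA binding factor RPA, was at 353 FPKM and 441 FPKM, 1.25-fold lower. RFA2 and GPI15 had positive log2 ratios of 0.15 and 0.10 with equal protein-coding sums.

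Other genes with introns were set beside the members. The 36 other intron-containing genes outside the ribosome that could be compared, among them repeated subtelomeric Y′ element genes with low values, had a median log2 ratio of 0.28, and 0.64 with equal protein-coding sums. Of these, 3 were at least 2-fold higher (YHR097C, COX5B and QCR10) and 3 at least 2-fold lower (DMC1, TUB3 and TEF4), which is 8.33% in each direction. At equal sums 8 (22.2%) passed the limit upwards and 1 (2.78%) downwards, against 19.6% and 4.48% of all genes compared. The 32 intron-containing ribosomal protein genes, which have far higher levels, had a median of -0.45, and 0.01 with equal protein-coding sums. As deposited 0 of them passed the limit upwards and 6 downwards, and with equal protein-coding sums 1 did in each direction. The 1884 protein-coding genes with no annotated intron had a median of -0.05, with 8.92% past the limit upwards and 9.08% downwards, and with 20.1% and 3.29% after equal protein-coding sums. The class with no intron ran from -5.08 to 6.09 over its 1884 genes. The smaller classes lay inside that range, which does not show whether the classes differ.

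**Figure D4:**
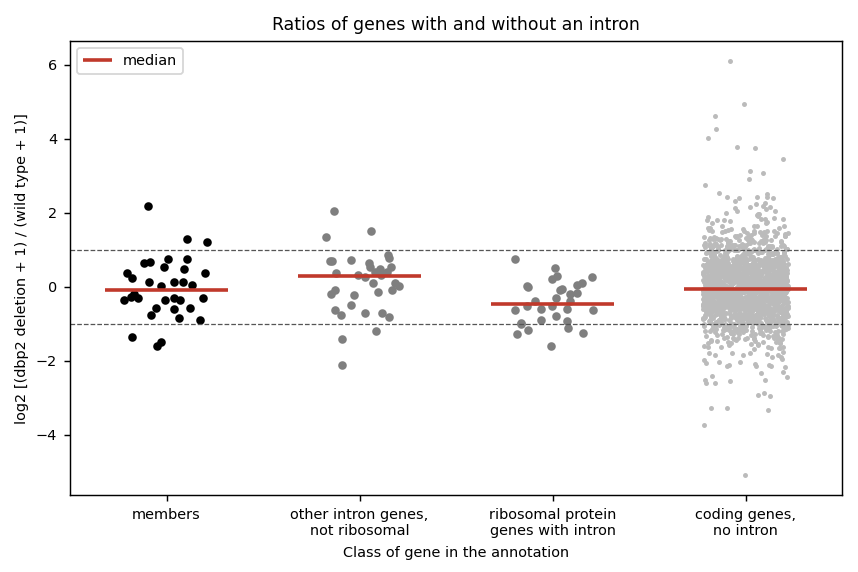
Log2 ratio of dbp2 deletion to wild type, 1 point per gene, for the 34 members, 36 other intron-containing genes outside the ribosome, 32 ribosomal protein genes with an intron and 1884 coding genes with none. Red lines are medians (-0.09, 0.28, -0.45 and -0.05), and dashed lines mark a 2-fold difference.

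Most of these introns are short and lie near the start of the gene. The 35 genes hold 36 introns of 67 to 309 bases, with a median of 93.5 bases against 141 bases over the 281 introns of 271 nuclear coding genes in the annotation. Those 281 introns, used for all shares below, include the introns of ribosomal protein genes and of the members themselves. The other genes outside the ribosome were not measured apart, so a shorter median is not shown to be particular to the members. NBL1 has the shortest and ACT1 the longest. The first coding exon had a median of 47 bases and was at most 50 bases in 22 of 35 genes, and it was a single base in NSP1. HAC1 (661 of 717 coding bases), GPI15 (591 of 690 coding bases) and REC107 (316 bases) had the longest first exons. Apart from HAC1, the 5′ end read GTATGT in 29 of 35 introns (82.9%), against 73.0% of all 281 introns. The branch site TACTAAC was found on the transcript strand in 28 of these 35 introns (80.0%), against 82.6% of all introns. On the other strand it was found in none of the 35 and in 1.78% of all. Its branch point A lay 11 to 105 bases before the last base of the intron, with NBL1 the closest and VMA10 the farthest.

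Among genes with another 5′ end, values went both ways. SPO22 (GTATAT), REC107 (GTTCGT), SNC1 (GTAAGT) and YIP3 (GTAAGT) were higher in the deletion strain, and BET1 (GTATGA) and SPO1 (GTAAGT) were lower. Their median log2 ratio was 0.44 over 6 genes, against -0.20 over the 27 with GTATGT. The 26 genes with an exact TACTAAC had a median of 0.03 and the 7 without one -0.20. The last 3 bases were AAG in 5 introns (TFC3, LSB3, SAE3, SPO22 and LSM7), which is 14.3% of the 35 and 4.63% of all introns. LSB3 and SPO22 lie at opposite ends of the ratios, so the AAG ending did not go with 1 direction.

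For the Mer1 motif the pattern ANACCCTN was searched, where N stands for any base. A hit is a match to this pattern alone, so the shares below are those of the pattern and not of Mer1 sites. The pattern does not overlap the splice site or branch site matches in the introns shown. It was found on the transcript strand in 11 of all 281 introns (3.91%) and among the members in SPO22, as ATACCCTT, and in REC107, as ATACCCTC. On the other strand it was found in 3.20% of all introns and in 1 member intron, that of APS3. Intron length was examined last, by a split at the median of 94 bases, which is also the length in LSB3. This split was chosen after the values were seen. Of the 17 spliceosomal members with at most 94 intron bases, 3 passed the limit upwards and 2 downwards. Of the 16 with longer introns 0 passed the limit in either direction as deposited. Over all genes compared 8.86% passed it upwards and 10.9% downwards. Rescaled to equal sums, 5 of the 17 passed it upwards and 2 downwards, and 2 of the 16 upwards (SNC1 and VMA10). The shares over all genes compared were then 19.6% and 4.48%. The medians of the groups were 0.01 and -0.07 as deposited. Spearman's rho between intron bases and log2 ratio was -0.20 over the 33 spliceosomal members. A link between intron length and ratio was not tested.

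**Figure D5:**
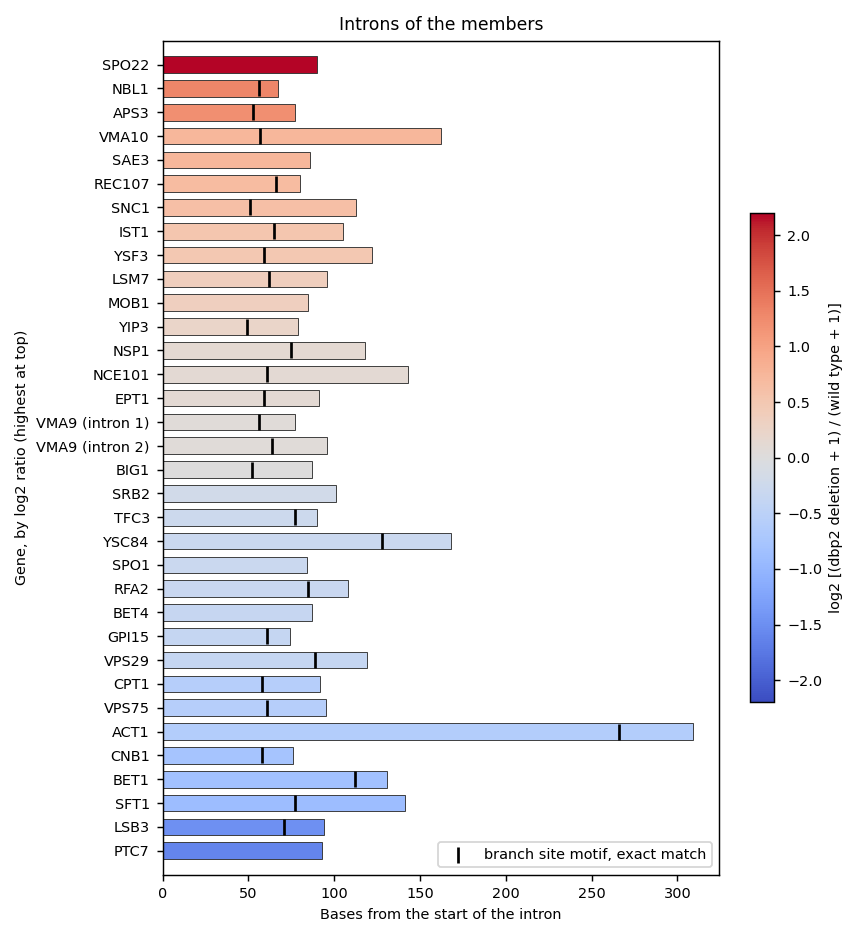
Introns of the 33 members on a single row other than HAC1, drawn to scale in bases from the start of the intron and coloured by log2 ratio of dbp2 deletion to wild type, highest at the top. Black ticks mark the branch point of an exact TACTAAC. The 5 genes past 2-fold (SPO22, NBL1 and APS3 at the top, LSB3 and PTC7 at the bottom) have introns of at most 94 bases. That cut was chosen after the values were seen, and Spearman's rho between intron bases and log2 ratio was -0.20. SNC1 (113 bases) and VMA10 (162 bases) also passed 2-fold with equal protein-coding sums.

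Neighbouring genes gave a local background. Of 52 distinct genes next to a member on the chromosome that were compared, 6 passed the limit upwards and 5 downwards, with a median log2 ratio of -0.06. Among all genes compared the shares were 8.86% and 10.9%, and the median was -0.08. Beside LSB3, the gene PES4 on the other strand was at 9.43 FPKM in the dbp2 deletion strain and 4.09 FPKM in wild type, opposite in direction to LSB3. Beside HAC1, the kinase gene RIM15 on the other strand was at 27.1 FPKM in the deletion strain and 14.5 FPKM in wild type, opposite in direction to HAC1. Other pairs shared a direction, such as REC107 with LSM8 (log2 ratio of 1.15) and SFT1 with SNR87 (-1.94).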

How the data were processed

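RNA of 1 wild-type and 1 dbp2 deletion sample was compared. The deposited values were taken as FPKM made by the authors, since Cuffdiff 2.1.1 is named in the submitters' processing notes and the values are not whole and have sums that CPM or TPM would not allow. The notes also give build sacCer3, which is assembly R64. The aligner, the annotation, the use of strand in counting and how replicates were combined were not given in the sources used here, and the depth is unknown, so no counting interval was computed.

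A gene was compared where it stood on 1 row, had no 0 and averaged at least 1 FPKM, with a pseudocount of 1 and a limit of 2-fold. The 643 rows of 306 repeated names, 7 rows naming several genes and 203 single-row genes at 0 in a strain were left out, since a 0 can be a failed estimate. Of 2809 names, 2454 matched RefSeq R64. Introns were the gaps between annotated exons, and gene models hold no UTRs. All 38 members are named, with DBP2 and up to 4 other genes by size of the log2 ratio from each list. Genes named beyond this rule (neighbours, DBR1, other intron-containing genes) were chosen after their values were seen. Members and lists were chosen with earlier results of these data known. Alternatives were other pseudocounts, filters, scalings and treatments of repeated rows. The procedure was tested on simulated data. Python 3.11.15, numpy 2.4.6, pandas 2.3.3, scipy 1.17.1, biopython 1.88 and matplotlib 3.10.9 were used.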

Additional observations from a re-analysis of the deposited data

How the results depend on the processing

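The counts of 3 members past 2-fold upwards and 3 downwards were the same with pseudocounts of 0.1 and 10, without a filter on low values, with a mean of at least 10 FPKM, with equal medians, and with repeated rows summed or the highest row taken. The median log2 ratio of the members was -0.20 with repeated rows summed, -0.20 with the highest row, and 0.0090 without VPS75, which overlaps another gene. With equal protein-coding sums 7 members were past 2-fold upwards and 2 downwards, close to the 19.6% and 4.48% of all genes, with a median of 0.37. SNC1 (1.10), VMA10 (1.22), SAE3 (1.09) and REC107 (1.13) then passed the limit, HAC1 (-0.88) no longer did, and 8 others below the limit changed sign. That scaling, for lists added after seeing the data, gave medians of 0.61 for splicing factors, -0.014 for HAC1 splicing and targets, -0.00051 for the V-ATPase, 0.59 for SNAREs, 0.75 for ESCRT and retromer, 0.079 for meiosis, 0.54 for actin, 0.64 for other intron-containing genes and 0.014 for intron-containing ribosomal protein genes. The median over all genes compared was 0.38 at that scaling. No member past the limit reversed in any of these settings. No paired analysis was possible because each strain has 1 value per row. With an unknown depth and 1 value per strain, differences of low genes such as SAE3 and SPO1 cannot be weighed against error.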
